A study of Mus musculus with 6 samples.

Results

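Immediate early genes are switched on within minutes of a stimulus, without new protein synthesis, and their transcripts are soon degraded again. The set described here holds 36 listed genes of the AP-1, Egr, Nr4a, Klf, Dusp, Zfp36, Gadd45 and Ier families with a few related stress-induced genes. A member was kept when it had a probe annotated to that gene alone, and the probe with the highest mean over the 6 arrays stood for it. This left 34 of the 36 genes, among 22180 genes tested. Fosl1 and Gadd45a share their only probe with another gene and were not analysed here.

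The 3 transgenic heart samples carried both Nkx2.5-Cre and R26R-miR302-367. The Cre, driven in cardiac progenitors, switches on the Mir302 and Mir367 microRNA cluster from the Rosa26 locus in cells of that lineage. The 3 control hearts carried Nkx2.5-Cre alone, so the Cre allele was common to both groups, as was the mixed C57BL/6 x 129S6 background. The source name puts harvest at postnatal day 14 while the age field reads E14, and the labels do not say whether each array is 1 animal. P-values thus rest on the variation among these arrays alone, and some of it may be technical. RNA was of the whole heart, so cells in which the Cre was never active are included.

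In signalling, growth factors, stretch and hormones activate MAP kinases and calcium- or cAMP-dependent kinases, which phosphorylate ternary complex factors bound with SRF and the CREB proteins already on the promoters. Part of the induced genes encode transcription factors (Fos, Jun, Egr, Nr4a, Klf), and part encode brakes that end the response: Dusp phosphatases inactivate MAP kinases, Zfp36 proteins degrade AU-rich transcripts and Socs3 blocks cytokine receptors. In the heart these genes are known for their response to pressure load, ischaemia and adrenergic drive.

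Transcripts of the set were mostly lower in transgenic hearts. Of the 34 members, 14 fell and 1 rose at an adjusted p of 0.05 (limma, Benjamini-Hochberg over all genes), and 19 did not pass. Among all genes tested, 5.76% fell, 5.35% rose and 11.1% were called in either direction, against 41.2% of the members that fell. The members were chosen with earlier results of these data known, so this contrast is descriptive. The members had a median difference of -0.41 on the log2 scale (transgenic minus control), beside -0.03 for all genes, and 31 of the 34 differences were negative (91.2%, beside 56.7% of all genes). For 21 members every transgenic value lay below every control value, and for 1 member above; the shares over all genes were 16.7% and 14.2%. In whole hearts, fewer cells of one type and less RNA per cell cannot be told apart.

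Promoter sequence of the 7 members that changed by at least 2-fold is given first, because it shows which known binding motifs each of these genes holds. The 250 bases before the annotated start were taken from RefSeq (build GRCm38.p6), for Bcl6 before the more upstream of its 2 starts, and run 5′ to 3′ on the strand of the gene. Capitals mark the core of the CRE, the site of CREB proteins (TGACG), its full palindrome (TGACGTCA), the E-box (CACGTG), the Egr site (GCGGGGGCG or GCGTGGGCG), the AP-1 site (TGACTCA), the CArG box of SRF, the NBRE of Nr4a proteins (AAAGGTCA), and the TATA box (TATAAA, gene strand only). All but the TATA box were searched on both strands, and some matches overlap.
Bcl6 (chr16:23988853-23989102, minus strand): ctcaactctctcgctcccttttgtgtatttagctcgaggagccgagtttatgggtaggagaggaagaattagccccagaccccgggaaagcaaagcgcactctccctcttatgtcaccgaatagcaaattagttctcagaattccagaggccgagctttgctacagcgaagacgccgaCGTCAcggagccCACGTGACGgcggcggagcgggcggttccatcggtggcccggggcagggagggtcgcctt
Nr4a1 (chr15:101266596-101266845, plus strand): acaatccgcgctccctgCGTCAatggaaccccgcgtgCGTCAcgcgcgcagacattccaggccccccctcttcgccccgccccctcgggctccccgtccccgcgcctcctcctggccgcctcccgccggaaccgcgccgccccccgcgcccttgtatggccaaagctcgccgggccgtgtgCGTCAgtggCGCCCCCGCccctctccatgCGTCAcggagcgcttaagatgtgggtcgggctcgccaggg
Nr4a3 (chr4:48045055-48045304, plus strand): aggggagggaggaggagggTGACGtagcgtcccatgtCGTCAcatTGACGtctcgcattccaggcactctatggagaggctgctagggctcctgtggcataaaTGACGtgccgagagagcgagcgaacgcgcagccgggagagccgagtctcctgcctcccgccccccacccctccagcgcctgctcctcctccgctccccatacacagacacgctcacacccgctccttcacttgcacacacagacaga
Fosl2 (chr5:32136222-32136471, plus strand): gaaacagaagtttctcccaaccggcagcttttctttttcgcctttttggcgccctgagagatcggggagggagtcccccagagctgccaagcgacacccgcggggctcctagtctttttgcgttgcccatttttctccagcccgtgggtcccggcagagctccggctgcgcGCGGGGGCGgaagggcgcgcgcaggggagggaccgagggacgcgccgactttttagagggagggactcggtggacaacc
Dusp1 (chr17:26508473-26508722, minus strand): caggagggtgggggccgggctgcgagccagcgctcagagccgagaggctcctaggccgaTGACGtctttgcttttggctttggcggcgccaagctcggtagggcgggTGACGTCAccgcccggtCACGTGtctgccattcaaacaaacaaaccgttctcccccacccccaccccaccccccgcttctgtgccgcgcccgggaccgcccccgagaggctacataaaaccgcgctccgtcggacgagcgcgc
Zfp36 (chr7:28379229-28379478, minus strand): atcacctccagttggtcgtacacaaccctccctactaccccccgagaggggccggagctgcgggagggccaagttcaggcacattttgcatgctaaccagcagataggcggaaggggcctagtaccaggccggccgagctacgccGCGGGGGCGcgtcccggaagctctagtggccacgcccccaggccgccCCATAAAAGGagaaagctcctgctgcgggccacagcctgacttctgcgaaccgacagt
Gadd45b (chr10:80929841-80930090, plus strand): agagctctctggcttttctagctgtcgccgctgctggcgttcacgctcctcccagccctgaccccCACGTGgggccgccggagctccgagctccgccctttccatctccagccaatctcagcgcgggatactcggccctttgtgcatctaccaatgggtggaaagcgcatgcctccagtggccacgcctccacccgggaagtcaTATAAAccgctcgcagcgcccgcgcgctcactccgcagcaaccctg

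The windows differed in what they held. Nr4a1 and Nr4a3 had 4 CRE cores each, Dusp1 had 3, of which 2 make up its 1 full palindrome, and Bcl6 had 2. Bcl6 and Dusp1 also held an E-box, and Nr4a1 an Egr site. Fosl2 and Zfp36 held an Egr site and no CRE core, and Zfp36 also a CArG box 58 to 49 bases before its start. Gadd45b, the member that rose, held an E-box and a TATA box and no CRE core.

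RefSeq windows were found for 28 of the 34 members, while Egr1, Egr3, Ier2, Klf10, Myc and Zfp36l2 had none in the table. A gene with several annotated starts counted as holding a motif when any of its windows did. A CRE core was present in 15 of the 28 (53.6%), against 19.8% of all 27025 genes with a window, an Egr site in 9 (32.1% against 3.47%) and an E-box in 9 (32.1% against 6.86%). A CArG box was present in 3 (10.7% against 1.62%), in the windows of Dusp5, Egr2 and Zfp36, and an AP-1 site in 1 (3.57% against 5.16%). The full CRE palindrome was found in Dusp1 and Maff (7.14% against 1.77%), and the NBRE in none. Median GC content was 64.6% in the members and 52.4% over all genes, which bears on how often GC-rich motifs occur, and these shares were not tested. Members that fell and members that were not called held the CRE core about equally often, in 8 of 14 and in 7 of 13 genes.

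**Figure D1:**
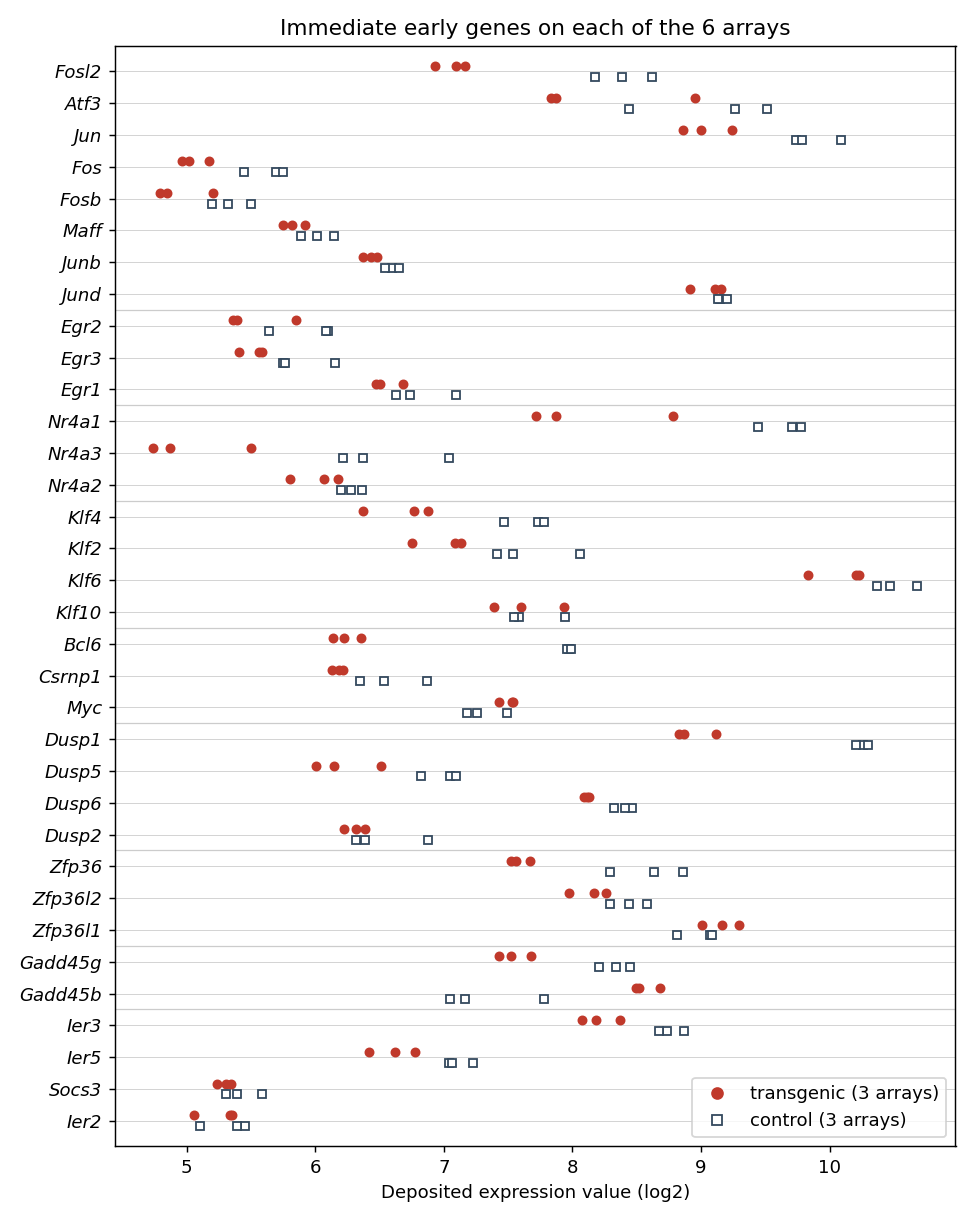
Deposited log2 value of each of the 34 members (rows, grouped by role) on the 3 transgenic arrays (red circles) and the 3 control arrays (open squares). The groups do not overlap for 21 members that are lower in transgenic hearts and for Gadd45b, which is higher.

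The AP-1 proteins are dimers of a Fos and a Jun subunit that bind a common DNA site. Fosl2, which encodes the subunit Fra-2, had log2 values of 7.16, 6.94 and 7.09 in transgenic hearts against 8.62, 8.18 and 8.39 in control hearts. All 3 transgenic values lay more than 1 log2 unit below the lowest control value, and Fosl2 fell by 1.33 (SE 0.13, adjusted p = 0.000508, limma). Jun, the main activating Jun subunit, had 8.86, 9.24 and 9.0 in transgenic hearts and 10.09, 9.74 and 9.79 in control hearts. Its groups were likewise apart, and it fell by 0.84 (SE 0.13, adjusted p = 0.00506). Fos, the inducible partner of Jun, had 5.02, 4.97 and 5.17 in transgenic hearts and 5.70, 5.44 and 5.75 in control hearts. Fos fell by 0.58 (SE 0.11, adjusted p = 0.0116), a call that was lost without transgenic 1 (adjusted p = 0.0513) or transgenic 2 (0.0551).

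The other AP-1 members did not pass. Fosb, a late-decaying Fos relative, differed by -0.39 (adjusted p = 0.0935), with transgenic 1 level with the lowest control value, both at 5.20. Junb, which competes with Jun, differed by -0.17 (95% interval -0.36 to 0.02) with groups that did not overlap, and Jund, the constitutively expressed Jun, by -0.10 (-0.31 to 0.11). Maff, a small Maf protein, differed by -0.19 (-0.41 to 0.04). Atf3, a stress-induced repressor of the ATF family, had 7.87, 8.95 and 7.84 in transgenic hearts and 9.26, 8.44 and 9.52 in control hearts. Both groups of Atf3 were split, 1 transgenic value lay above 1 control value, and its difference of -0.85 had an SE of 0.34 (adjusted p = 0.153).

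Egr proteins are zinc finger activators that are among the fastest induced by MAP kinase signalling. None of the 3 passed the test. Egr1 averaged 6.55 ± 0.11 in transgenic hearts and 6.82 ± 0.24 in control hearts (SD, n = 3 each), with an adjusted p = 0.247 (limma). Egr2 averaged 5.53 ± 0.27 in transgenic hearts and 5.94 ± 0.26 in control hearts (limma adjusted p = 0.164). Egr3 averaged 5.52 ± 0.096 in transgenic hearts and 5.89 ± 0.23 in control hearts (limma adjusted p = 0.0957), and it was the only Egr gene whose groups did not overlap. The 95% intervals reached down to -0.56 for Egr1, -0.78 for Egr2 and -0.65 for Egr3, so differences of that size lie within what these arrays allow.

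The Nr4a genes encode orphan nuclear receptors that act without a known physiological ligand and are induced in heart and muscle by adrenergic signals. Nr4a1 (Nur77) had log2 values of 7.87, 7.71 and 8.78 in transgenic hearts and 9.78, 9.44 and 9.71 in control hearts. Transgenic 3 stood nearest to the controls but still below all of them, and Nr4a1 fell by 1.52 (SE 0.25, adjusted p = 0.00618). Nr4a3 (Nor1) had 4.74, 4.87 and 5.50 in transgenic hearts and 7.04, 6.22 and 6.37 in control hearts. Here too transgenic 3 was the highest of its group and the groups stayed apart; Nr4a3 fell by 1.51 (SE 0.24, adjusted p = 0.00605). Nr4a2 (Nurr1) differed by -0.26 (adjusted p = 0.181), with 5.81, 6.18 and 6.07 in transgenic hearts and 6.37, 6.28 and 6.20 in control hearts.

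Klf genes encode zinc finger regulators, of which Klf2 and Klf4 respond to blood flow in endothelial cells. Klf4 had log2 values of 6.77, 6.37 and 6.88 in transgenic hearts and 7.73, 7.78 and 7.47 in control hearts, and fell by 0.99 (SE 0.14, adjusted p = 0.00392). Klf2 had 6.75, 7.13 and 7.08 in transgenic hearts and 8.06, 7.54 and 7.41 in control hearts. Its groups did not overlap and it fell by 0.68 (SE 0.17, adjusted p = 0.0388), yet this was the least stable of the 15 calls, lost without any of 5 single arrays at adjusted p-values from 0.0573 to 0.134. Without control 3 the call held. Klf6, a growth-restraining factor, differed by -0.42 (adjusted p = 0.0792) with separate groups, and Klf10, induced by TGF-beta, by -0.05 (95% interval -0.41 to 0.31) with overlapping groups.

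Bcl6, a transcriptional repressor best known from germinal centre B cells, showed the largest difference of the set in either direction. It had log2 values of 6.35, 6.14 and 6.22 in transgenic hearts and 7.97, 7.96 and 7.99 in control hearts. The control values were within 0.03 of each other, and Bcl6 was 3.33-fold lower in transgenic hearts, a log2 difference of -1.74 (SE 0.089, adjusted p = 2.73e-05). Csrnp1, a nuclear protein induced by AXIN1 signalling, differed by -0.41 (adjusted p = 0.0803) with separate groups. Myc, the growth-promoting transcription factor, had a positive difference of 0.19 (95% interval -0.04 to 0.42, adjusted p = 0.293), with 7.54, 7.53 and 7.43 in transgenic hearts and 7.18, 7.49 and 7.25 in control hearts.

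**Figure D2:**
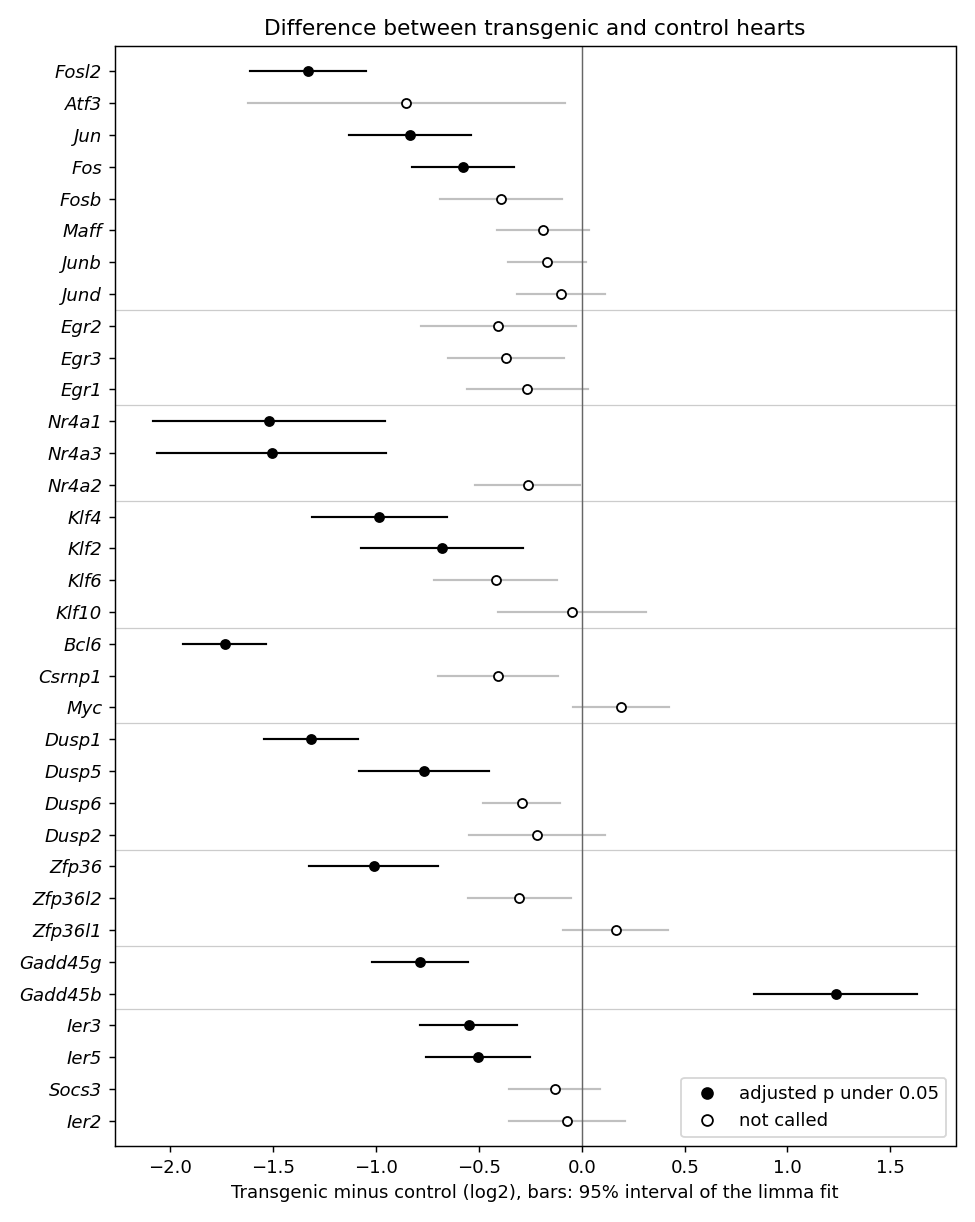
Log2 difference of each member (transgenic minus control) and its 95% interval from the limma fit; filled points passed an adjusted p of 0.05 and open points did not. The 14 filled points left of 0 run from -1.74 for Bcl6 to -0.51 for Ier5, and Gadd45b at 1.23 is the filled point on the right.

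The Dusp members are phosphatases that switch MAP kinases off. Dusp1, which acts mainly on p38 and JNK in the nucleus, had log2 values of 8.83, 8.87 and 9.12 in transgenic hearts and 10.26, 10.30 and 10.20 in control hearts. Both groups were narrow and more than 1 log2 unit apart, and Dusp1 was 2.49-fold lower (log2 difference -1.32, SE 0.10, adjusted p = 0.000256). Dusp5, specific for ERK in the nucleus, had 6.01, 6.15 and 6.51 in transgenic hearts and 7.05, 7.09 and 6.82 in control hearts. Dusp5 fell by 0.77 (SE 0.14, adjusted p = 0.00971), and transgenic 3 was again nearest to the controls. Dusp6, which acts on ERK in the cytoplasm, had 8.11, 8.09 and 8.13 in transgenic hearts and 8.47, 8.41 and 8.32 in control hearts. Dusp6 had the smallest pooled SD of the Dusp genes, 0.053, and its groups did not overlap. The difference of -0.29 just missed the threshold (adjusted p = 0.0557), and it passed under 5 of the 14 alternatives. Its second, dimmer probe gave -0.14 (SE 0.10), and the mean of its probes gave -0.22 (limma adjusted p = 0.152). Dusp2 differed by -0.22 (adjusted p = 0.406) with overlapping groups.

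Zfp36 proteins bind AU-rich elements and speed the decay of early-response and cytokine transcripts. Zfp36 (tristetraprolin) had log2 values of 7.67, 7.52 and 7.56 in transgenic hearts and 8.86, 8.63 and 8.29 in control hearts. It fell by 1.01 (SE 0.14, adjusted p = 0.00291), a 2.02-fold difference. Zfp36l2 had separate groups and a difference of -0.30 (adjusted p = 0.122). Zfp36l1 had 9.01, 9.29 and 9.17 in transgenic hearts and 9.07, 9.09 and 8.82 in control hearts, a difference of 0.16 (95% interval -0.09 to 0.42, adjusted p = 0.417). Its second, dimmer probe gave 0.15 (SE 0.11).

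The Gadd45 genes encode small proteins that bind stress kinases and the cell cycle machinery, and the measured pair went opposite ways. Gadd45b, a stress-induced regulator of p38 and JNK signalling, had log2 values of 8.68, 8.52 and 8.50 in transgenic hearts and 7.17, 7.78 and 7.05 in control hearts. It was the only member that rose, by 1.23 (SE 0.17, adjusted p = 0.00335, 2.35-fold), although control 2 stood 0.44 above the mean of its own group. Gadd45g had 7.68, 7.43 and 7.52 in transgenic hearts and 8.45, 8.34 and 8.21 in control hearts. Gadd45g fell by 0.79 (SE 0.10, adjusted p = 0.00239), with no overlap between groups.

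Ier3, an early-response protein that modulates ERK signalling and cell survival, fell by 0.55 (SE 0.10, adjusted p = 0.0117). It had log2 values of 8.07, 8.37 and 8.18 in transgenic hearts and 8.73, 8.68 and 8.86 in control hearts. Ier5, a regulator of the heat shock factor HSF1, fell by 0.51 (SE 0.11, adjusted p = 0.0223). The Ier3 call was lost without transgenic 1 (adjusted p = 0.0517), and the Ier5 call without transgenic 1, transgenic 3, control 1 or control 3 (adjusted p = 0.0516 to 0.0789). Ier2 differed by -0.07 (95% interval -0.35 to 0.21) and Socs3, the cytokine receptor inhibitor, by -0.13 (-0.35 to 0.09), and both had overlapping groups.

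Immediate early genes are known to vary from sample to sample, so their spread over arrays is given on its own. The pooled within-group SD had a median of 0.177 over the 34 members and 0.130 over all genes. Atf3 had the widest spread, an SD of 0.600, above 99.9% of all genes, followed by Nr4a1 with 0.428 and Nr4a3 with 0.422. Dusp6 with 0.053, Junb with 0.055 and Bcl6 with 0.078 varied least. Measured from the mean of its own group, the median member deviated by -0.057, -0.035 and 0.016 on transgenic 1, 2 and 3, and by 0.064, -0.024 and -0.067 on control 1, 2 and 3. Each array was the highest of its group for 10 to 13 of the 34 members. The counts of lowest values were less even: transgenic 1, 2 and 3 were the lowest of their group for 14, 14 and 6 members, and control 1, 2 and 3 for 4, 13 and 17. The 2 Nr4a genes with the largest differences were both highest on transgenic 3 within their group, Nr4a1 by 0.66 above its mean.

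**Figure D3:**
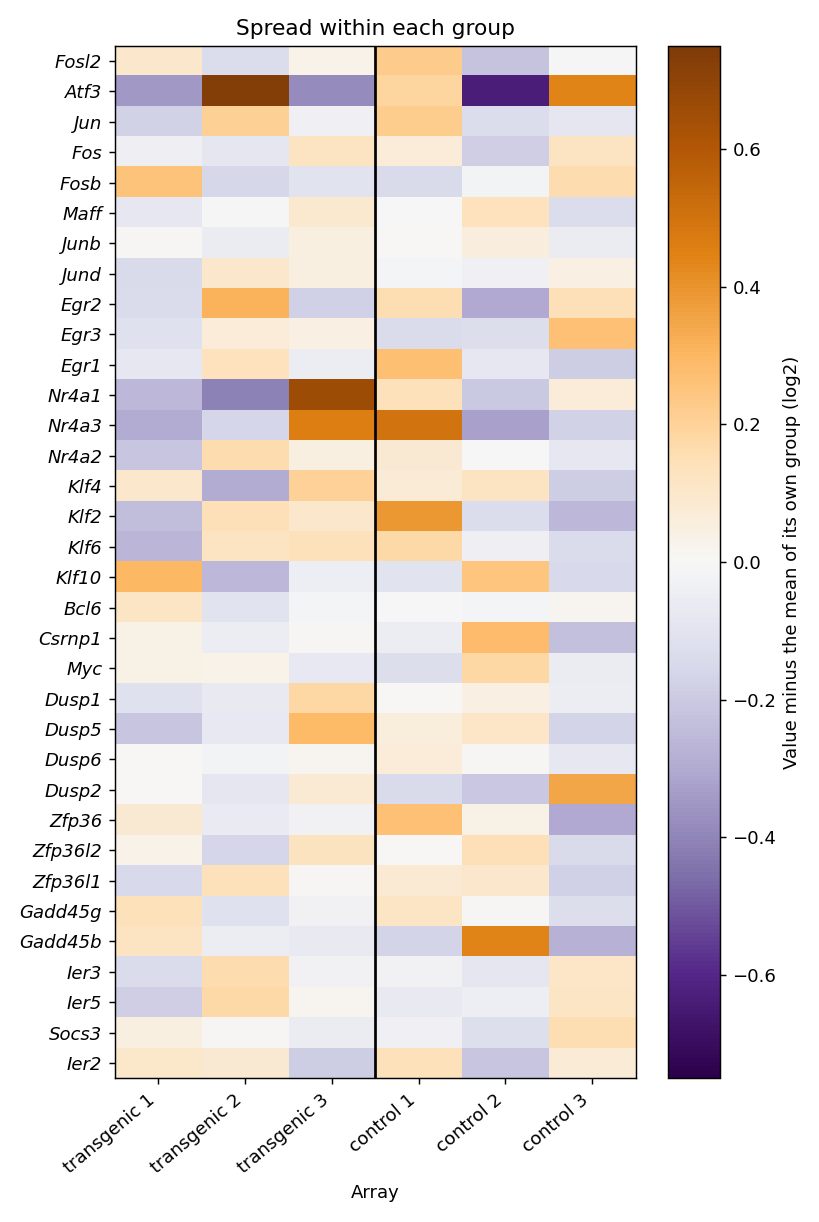
Value of each member on each array minus the mean of its own group (log2, colour), with the 3 transgenic arrays left of the black line and the 3 control arrays right of it. Atf3 has the strongest colours, up to 0.73 on transgenic 2 and down to -0.63 on control 2, and no column is of 1 colour throughout.

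The sexes were mixed in both groups. By Xist and the Y-linked genes Eif2s3y, Kdm5d and Uty, transgenic 2 and controls 1 and 3 read as male, and transgenic 1 and 3 and control 2 as female. Sex was not given in the labels used here, so this reading rests on the arrays alone. Atf3 was higher in male hearts within each genotype, by 1.10 among transgenic hearts and by 0.95 among control hearts. In a fit with genotype and sex, Atf3 was 1.02 higher in male hearts (SE 0.11, limma adjusted p = 0.0439), 1 of the 6 genes (0.0271% of all) called for sex. The others were Xist, Uty, Kdm5d, Eif2s3y and Fmn1. The estimate was 0.95 to 1.10 with each array left out, and the call was lost each time (adjusted p = 0.0522 to 0.682).

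With sex in the fit, Atf3 was lower in transgenic hearts by a difference of -0.51 (SE 0.11, adjusted p = 0.0266), where the fit without sex gave -0.85 and no call. Egr2 had the same order of values, with 5.85 in the male and 5.39 and 5.36 in the female transgenic hearts, and 6.10 and 6.08 in the male and 5.64 in the female control hearts. Its male minus female estimate of 0.46 did not pass (adjusted p = 0.782). For Klf10 the male values were the lower ones (-0.38, adjusted p = 0.983). These 3 genes had the smallest p-values for sex and were chosen after their values were seen. Of the 34 members, 29 were lower and 2 higher in transgenic hearts in both sexes when compared separately, and 3 had opposite signs. This counts signs only, since males had 1 transgenic array and females 1 control array. Zfp36l1 counted as higher with a female difference of 0.0008. The share over all genes was not taken.

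**Figure D4:**
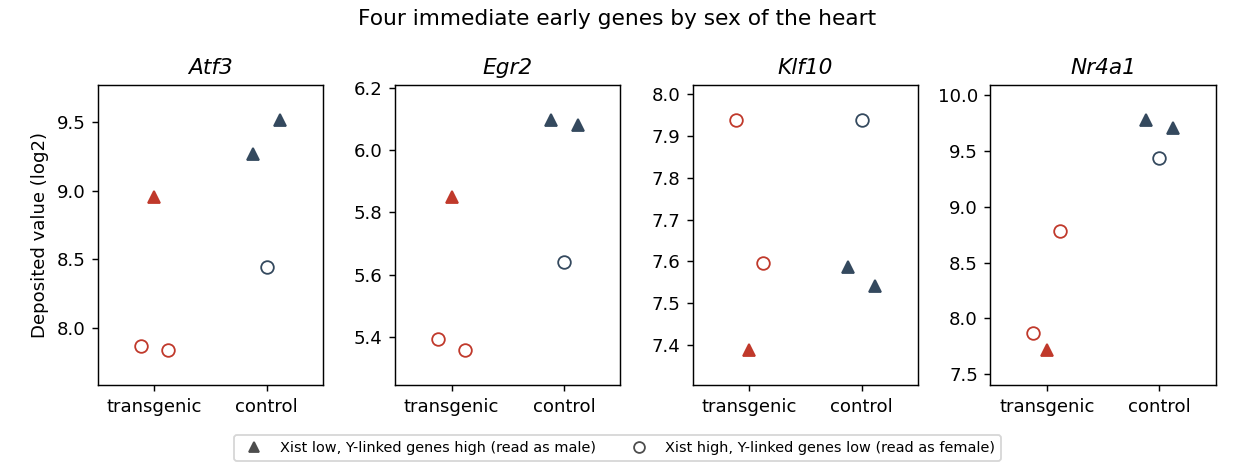
Deposited log2 values of Atf3, Egr2, Klf10 and Nr4a1 on the 3 transgenic and 3 control arrays, with triangles for hearts read as male and open circles for hearts read as female. For Atf3 and Egr2 the male values lie above the female ones within each genotype, for Klf10 below them, and for Nr4a1 the transgenic male value of 7.71 is the lowest.

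Genes around the set were examined from lists of the same signalling routes. Among the other early-response genes, 11 of 37 fell and 0 rose (limma), with a median of -0.27. The share that fell was 29.7%, beside 5.76% of all genes, where 5.35% rose. At an unadjusted p of 0.05, 18 of the 37 were lower and 0 higher. Over all 22180 genes, 2983 were lower and 2650 higher at that level. Rgs2, which quenches Gq-coupled receptor signals, had log2 values of 8.65, 8.30 and 8.96 in transgenic hearts and 9.96, 10.08 and 9.86 in control hearts, and fell by 1.33 (adjusted p = 0.00149). Rhob, an inducible small GTPase, fell by 0.89 (adjusted p = 0.00106), and Trib1, a pseudokinase, fell by 0.88 (adjusted p = 0.0026). These genes moved in the direction of most members, and their list too was chosen with earlier results of these data known.

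The genes that carry the signal showed no such direction, and the other feedback genes showed less of it. Of 15 ternary complex, SRF and CREB pathway genes 1 fell and 0 rose, with a median of -0.09: Elk4, a ternary complex factor, fell by 0.40 (adjusted p = 0.0203), while Myocd, an SRF coactivator, had a difference of 0.33 (adjusted p = 0.0651) and the kinase gene Mapkapk2 one of -0.32 (adjusted p = 0.0698). Of 16 MAP kinase cascade genes 3 rose and 3 fell, with a median of 0.004. The 3 that fell were 18.8% of this list, where 5.76% of all genes fell and 5.35% rose. Mapk12, the muscle p38 kinase, rose by 0.72 (adjusted p = 0.0011), Map2k3, a kinase upstream of p38, fell by 0.92 (adjusted p = 0.00242), and Mapk14, p38 alpha, fell by 0.35 (adjusted p = 0.0273). Of 16 other feedback genes of this cascade 2 rose and 2 fell (12.5% fell), with a median of -0.13. Here 12 of the 16 differences were negative (75%, beside 56.7% of all genes). Errfi1, an EGF receptor inhibitor, fell by 0.90 and Dusp8, a phosphatase of JNK and p38, fell by 0.80, while Dusp10 rose by 0.44.

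At an unadjusted p of 0.05 (limma), 7 of 37 close relatives and partners of the members were lower and 3 higher. Over all 22180 genes, 2983 were lower and 2650 higher at that level. After adjustment, 2 of the 37 fell (5.41%, beside 5.76% of all genes) and 0 rose, with a median of -0.04. Both were Maf genes, Mafk (fell by 0.74, adjusted p = 0.00241) and Maf (fell by 0.57, adjusted p = 0.00769); Socs2 had a difference of 0.50 (adjusted p = 0.051). Other stress programmes had calls in both directions. The share that fell was 18.2% of heat shock, 26.7% of ATF4 and 12.5% of glucocorticoid-induced genes, beside 5.76% of all genes. Their medians were -0.01, -0.15 and 0.003. Of 11 heat shock genes 2 rose and 2 fell; Hspb8, a small heat shock protein, fell by 1.18, its partner Bag3 fell by 0.82, and Hsp90aa1 rose by 0.56. Of 15 genes of the ATF4 stress response 1 rose and 4 fell; Chac1, which degrades glutathione, fell by 1.14, Shmt2 fell by 0.43 and Psat1, of serine synthesis, rose by 0.66. Of 8 glucocorticoid-induced genes 1 rose and 1 fell; Klf9 fell by 0.53, Mt2 rose by 0.71, and Tsc22d3 had a difference of -0.31 (adjusted p = 0.197).

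Markers of some other cell types of the heart were lower in the same hearts. Endothelial markers fell in 7 of 12 and rose in 0, and their summed level, as log2 of the summed linear values, was 13.57 to 13.64 in transgenic hearts and 13.79 to 13.89 in control hearts. Macrophage markers fell in 8 of 12 and rose in 0, with summed levels of 10.00 to 10.23 in transgenic hearts and 10.66 to 10.86 in control hearts. Smooth muscle and pericyte markers fell in 4 of 10 and rose in 1, at 13.34 to 13.51 in transgenic hearts and 13.86 to 13.99 in control hearts. The shares that fell in these 3 lists were 58.3%, 66.7% and 40%, beside 5.76% of all genes, with median differences of -0.40, -0.60 and -0.22. In these 3 lists the summed levels of the groups were apart, and the part of these cells in the lower member transcripts was not tested.

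Single markers within those lists differed. Cdh5, the endothelial cadherin, fell by 0.39 (adjusted p = 0.0483), whereas Fabp4, of capillary endothelium, had a difference of -0.05 (adjusted p = 0.758). C1qb, a macrophage complement subunit, fell by 0.96, and Lyz2 had a difference of -0.32 (adjusted p = 0.224). Rgs5, of pericytes, fell by 0.65 and Acta2, smooth muscle actin, fell by 0.52. Acta2 and Rgs5 were the brightest of their list and weigh most in its summed level. The marker of that list that rose was Cnn1, a calponin of smooth muscle, by 1.41 (adjusted p = 0.00097), named after its value was seen. In that list 5 markers did not pass, with differences from -0.26 for Notch3 to 0.33 for Cspg4. Myh11 had -0.08 (limma adjusted p = 0.679) and Tagln -0.19 (0.327). These were also named after their values were seen.

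The summed levels of the other 5 lists overlapped between groups. The cardiomyocyte markers, bright on all arrays with Actc1 at 13.34 in transgenic and 13.45 in control hearts and Pln at 13.49 in transgenic and 13.50 in control hearts, rose in 1 of 10 and fell in 0. The cardiomyocyte marker that rose was Nppa, the gene of atrial natriuretic peptide, at 11.31 ± 0.23 in transgenic and 10.12 ± 0.31 in control hearts (SD, n = 3 each, limma adjusted p = 0.0034). Fibroblast markers rose in 1 of 9 (Postn by 0.33) and fell in 1 (11.1%). Over all genes 5.35% rose and 5.76% fell, and lists of 10 and 9 genes are too short to set 1 call apart from these shares. The fibroblast marker that fell was Fbln1, a matrix protein gene, by 0.90 (adjusted p = 0.0038), and both Nppa and Fbln1 were named after their values were seen. Dcn, a matrix proteoglycan gene, had a difference of -0.21 (adjusted p = 0.131). None of 8 neutrophil, 9 lymphocyte or 2 erythroid markers passed with limma. At an unadjusted p of 0.05, 1 neutrophil and 1 lymphocyte marker were lower and 0 higher. Over all 22180 genes, 2983 were lower and 2650 higher at that level. Cxcr2 and Elane (neutrophil), Cd79b and Nkg7 (lymphocyte) and Slc4a1 and Epb42 (erythroid) had differences between -0.39 and 0.11. No detection calls were used, so a low marker cannot be called absent.

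**Figure D5:**
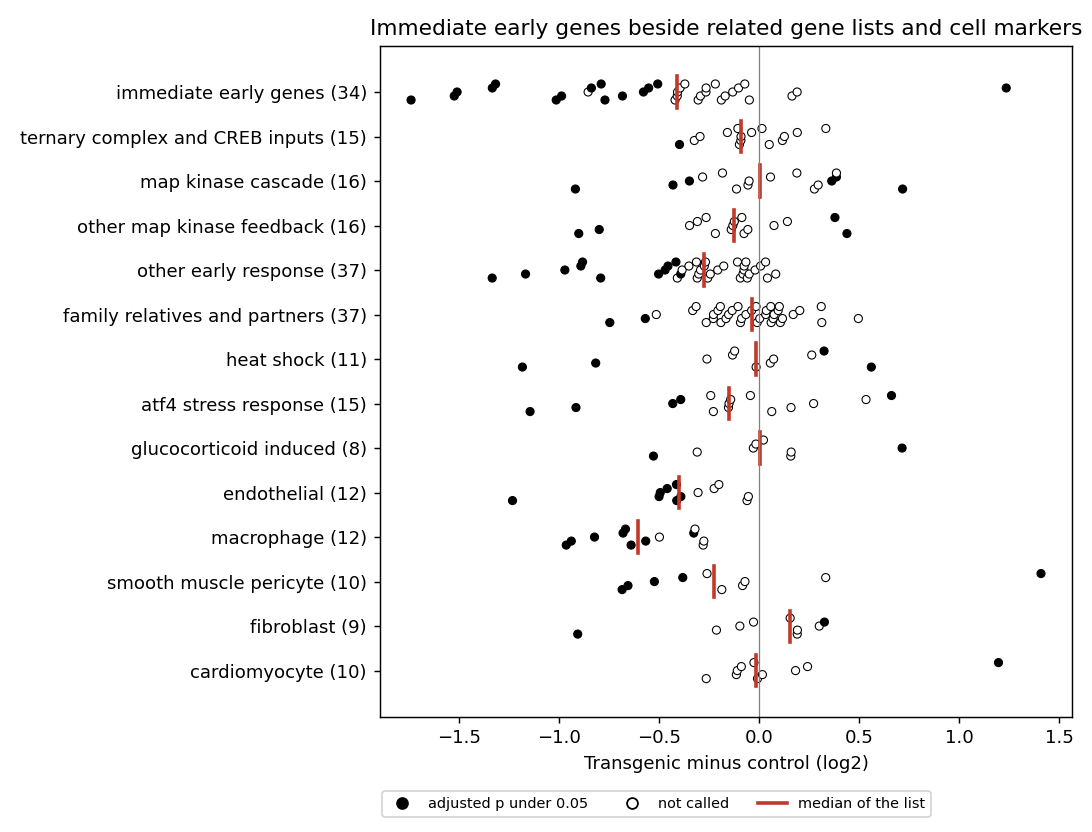
Difference of each gene (transgenic minus control, log2) in the set, the related gene lists and the cell marker lists, with the number of genes in brackets, filled points for an adjusted p under 0.05 and a red line at the median. The set lies furthest left among the signalling lists with a median of -0.41. Other early-response genes follow at -0.27, and the MAP kinase cascade lies at 0.004. Among the marker lists, macrophage lies further left than the set, at -0.60, and endothelial lies at -0.40. Smooth muscle and pericyte lie at -0.22, cardiomyocyte at -0.02 and fibroblast at 0.16.

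All 5 genes of the Mir302 and Mir367 cluster were higher in transgenic hearts, by 2.99 to 6.61 on the log2 scale with no overlap between groups. Arrays correlated at 0.974 to 0.989 across all probes, and array medians were 5.51 to 5.54 in transgenic hearts and 5.45 to 5.53 in control hearts. The number of arrays limits the precision of every value above.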

How the data were processed

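The authors deposited log2 values for each probe on 6 arrays of mouse heart RNA. The labels' protocols state a poly(T)-primed reverse transcription of 100 ng RNA with linear amplification and biotin labelling. RMA, oligo and limma appear in the submitters' processing notes with no version; the filters and the order of steps were not given in the sources used here.

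Of 41345 probes, 23521 had 1 gene symbol, 1814 several and 16010 none in the platform's annotation. The brightest single-symbol probe stood for a gene, giving 22180 genes, all tested with no filter. No member lay in the dimmest 33.3% of genes, but the dimmest, Fosb, stood at the 35th percentile and Fos at 38.7. Of the called members, Fos (5.05) and Nr4a3 (5.04) averaged below the array medians of 5.51 to 5.54 in transgenic hearts. No detection calls were used for them.

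Groups of 3 were compared with limma 3.58.1 (lmFit, eBayes, no covariates) in R 4.3.3, two-sided, with Benjamini-Hochberg adjustment over all genes and a threshold of 0.05. The fit was tested on simulated data. Every member was to be reported, with up to 3 genes per related list by smallest p and the 2 brightest genes per marker list. The members and lists were chosen with earlier results of these data known.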

Additional observations from a re-analysis of the deposited data

How the results depend on the processing

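Under 14 alternatives (mean of a gene's probes, dimmest 33.3% left out, renewed quantile normalization, centred arrays, intensity trend with robust variance, array weights, replicate block, sex term, each array left out) 11 of the 15 called members stayed called throughout; Fos, Klf2, Ier3 and Ier5 did not. The count of members that fell ranged from 11 to 17 and the count that rose was 1 each time. The median difference ranged from -0.45 to -0.37. Differences near 0 turned positive for Klf10 without transgenic 2 (0.079) or control 2 (0.077), with a range of -0.20 to 0.079 over arrays left out, and for Ier2 with a sex term (0.0038) or without transgenic 3 (0.024), with a range of -0.18 to 0.024; neither gene was called. Members not called at first passed under some alternatives: Fosb, Atf3, Egr3, Klf6, Csrnp1 and Dusp6. Over all genes, 2465 were called, against 1217, 1171 and 1553 without transgenic 1, 2 or 3. Without control 1, 2 or 3 the counts were 1378, 1804 and 2249. With all arrays kept, the alternatives gave from 1878 (sex term) to 3168 (intensity trend with robust variance).

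With the replicate number as a block, 13 members fell and 1 rose, and the Klf2 call was lost (adjusted p = 0.0686). Same-numbered arrays did not deviate together (correlations 0.016, -0.13 and 0.014), so the numbers were not taken as pairs. The sex term also lost Klf2 (0.0777). Leaving out arrays for the sex estimate of Atf3 was chosen after seeing the data.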
